A study of Homo sapiens with 9 samples.

Results

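The rows described here are noncoding transcripts named by convention rather than by function: symbols that end in -AS and a digit, given to transcripts read from the strand opposite a named gene, and symbols that start with LINC and a digit, given to long intergenic noncoding RNAs. Rows were kept if their mean over the 9 libraries was at least 1 FPKM (fragments counted per transcript length and library size), and EPB41L4A-AS1 was left out. This gave 184 rows, 137 antisense and 47 LINC, of 687 such rows at any level and of 23621 gene rows in all. The members were thus selected on their measured level, which is given below as a description. Members just inside the limit included ZRANB2-AS1 (1.01 FPKM) and FAM222A-AS1 (1.03 FPKM), and the nearest rows outside it were LINC00854 (0.959 FPKM), PSMD6-AS2 (0.956 FPKM) and BAIAP2-AS1 (0.952 FPKM).

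The libraries were made from MOLT4 cells, a human line established from a T-cell acute lymphoblastic leukemia, 6 h after addition of 0.1% DMSO (the vehicle), sunitinib or MI-389, with 3 libraries in each group. Sunitinib is a kinase inhibitor, and MI-389 is, by the design text, a phthalimide conjugate, a kind of molecule built to bring proteins to the ubiquitin ligase receptor cereblon. The labels of the treated libraries conflict: where the title says MI-389 the source field says sunitinib at 1 µM, and where the title says sunitinib it says MI-389 at 0.1 µM. Column names and the barcode list go with the titles, which were used for grouping. If the source field is right, the compound names below change places. Whether the 3 libraries of a group were separate cultures is not stated in the labels; the p-values measure their spread, which may be technical.

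Long noncoding RNAs are transcribed by RNA polymerase II and many are capped, spliced and polyadenylated like messenger RNAs, but they are not translated into long proteins. Some act in the nucleus at or near the gene they come from, others in the cytoplasm as binding partners of proteins or microRNAs, and for most no function is known. Antisense transcripts often start close to, and run away from, the promoter of the gene they are named after, or overlap its exons on the other strand. Strand is not marked by the kit used, and in overlapping exons reads of a transcript and of its opposite-strand partner cannot be told apart. In GENCODE release 29, which is on another genome build than the deposited values and was used for categories only, 178 of the 184 symbols were found, and exons of 114 of the members (109 antisense, 5 LINC) overlapped coding exons on the opposite strand.

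A name did not always mean a noncoding gene. RefSeq's gene list held 182 members, 172 of them as noncoding RNA and 7 as protein-coding genes. Among the latter, LINC00493 is now SMIM26 and LINC00116 is now MTLN, both genes of small mitochondrial proteins, and HNRNPU-AS1 is listed as a synonym of HNRNPU itself, which encodes a nuclear RNA-binding protein, although the deposited table holds a separate HNRNPU row at a mean of 372 FPKM, against 20.8 FPKM for HNRNPU-AS1. LINC00176 is listed under the coding symbol C20orf204.

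Sequences around the starts of 138 members were found in the RefSeq promoter table (GRCh38.p14, from 250 bases before to 50 bases after the start). These windows were richer in G and C (median 63.0%) than the 35116 windows of the whole table (58.67%). Of 90 antisense rows with both starts in the table, 43 started within 1000 bases of the named gene and on the other strand. A pair of these is shown, chosen after their values were seen because row and named gene were called in opposite directions in a comparison described below; the bases between the starts lie upstream of both. In DICER1-AS1, at chr14:95157438-95157737 on the plus strand, the starts are 159 bases apart. In TMEM161B-AS1, at chr5:88268766-88269065 on the plus strand, they are 171 bases apart. Capitals mark the stretch between the start of the antisense transcript and that of the named gene.
DICER1-AS1: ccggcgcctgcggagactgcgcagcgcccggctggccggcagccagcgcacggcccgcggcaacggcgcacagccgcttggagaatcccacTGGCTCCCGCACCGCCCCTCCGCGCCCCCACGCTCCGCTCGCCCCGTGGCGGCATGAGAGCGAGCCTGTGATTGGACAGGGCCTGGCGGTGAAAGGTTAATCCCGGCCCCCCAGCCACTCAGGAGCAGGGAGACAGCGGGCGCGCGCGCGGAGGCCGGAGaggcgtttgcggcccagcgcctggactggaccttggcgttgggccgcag
TMEM161B-AS1: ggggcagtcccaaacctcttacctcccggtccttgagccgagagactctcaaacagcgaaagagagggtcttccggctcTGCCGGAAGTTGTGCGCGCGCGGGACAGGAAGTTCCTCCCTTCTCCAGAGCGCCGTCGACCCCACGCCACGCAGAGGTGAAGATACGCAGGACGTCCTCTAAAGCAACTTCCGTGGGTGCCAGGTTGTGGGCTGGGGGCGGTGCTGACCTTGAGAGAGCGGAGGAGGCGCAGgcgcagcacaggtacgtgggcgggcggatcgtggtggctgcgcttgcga

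The next 4 windows are shown because they belong to members that rose in libraries titled MI-389 and hold TGANTCA, searched on both strands. This pattern is wider than TGAGTCA or TGACTCA, the usual site of AP-1 (dimers of JUN and FOS family proteins). It also takes in TGAATCA, the only match in LINC00263, and TGATTCA, the only match in GABPB1-AS1. They are LINC00152 at chr2:87455177-87455476, LINC00263 at chr10:100373326-100373625, LINC00339 at chr1:22024941-22025240 and GABPB1-AS1 at chr15:50353924-50354223, all on the plus strand of GRCh38.p14. Capitals mark each match.
LINC00152: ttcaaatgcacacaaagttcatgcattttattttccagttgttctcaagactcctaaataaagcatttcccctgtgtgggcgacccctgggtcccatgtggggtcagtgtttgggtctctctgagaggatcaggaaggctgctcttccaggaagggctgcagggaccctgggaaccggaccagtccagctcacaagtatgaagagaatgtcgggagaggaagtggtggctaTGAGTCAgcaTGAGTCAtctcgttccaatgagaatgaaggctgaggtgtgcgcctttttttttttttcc
LINC00263: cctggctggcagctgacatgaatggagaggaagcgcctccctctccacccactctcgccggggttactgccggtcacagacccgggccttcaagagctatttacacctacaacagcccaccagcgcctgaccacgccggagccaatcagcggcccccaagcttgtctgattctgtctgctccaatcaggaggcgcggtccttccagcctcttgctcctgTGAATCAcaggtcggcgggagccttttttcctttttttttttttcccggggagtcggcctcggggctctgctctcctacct
LINC00339: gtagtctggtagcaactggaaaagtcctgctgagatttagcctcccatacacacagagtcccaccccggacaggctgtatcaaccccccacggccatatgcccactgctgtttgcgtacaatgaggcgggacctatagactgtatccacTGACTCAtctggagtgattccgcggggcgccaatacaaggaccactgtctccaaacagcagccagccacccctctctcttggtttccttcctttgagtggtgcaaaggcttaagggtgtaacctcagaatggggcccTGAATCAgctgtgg
GABPB1-AS1: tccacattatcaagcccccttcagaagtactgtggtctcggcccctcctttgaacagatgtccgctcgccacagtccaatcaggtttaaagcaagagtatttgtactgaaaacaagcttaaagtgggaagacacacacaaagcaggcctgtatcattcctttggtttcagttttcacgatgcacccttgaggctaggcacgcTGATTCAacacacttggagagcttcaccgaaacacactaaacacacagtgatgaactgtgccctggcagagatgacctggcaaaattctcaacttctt

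TGANTCA, with any letter at N, was found in 7 of 138 member windows (5.072%) and in 7.709% of all windows. It lay in 4 of 25 windows of members that rose in libraries titled MI-389 and in 0 of 25 windows of members that fell, and in 3 of 88 windows of members not called. Among windows of members that rose and that fell, TGACGTCA was in 2 and 0, CACGTG in 2 and 3, TGATGNAA in 0 and 1, and CCAAT in 9 and 6. These splits were not tested. The cyclic AMP response element TGACGTCA was in 2.899% of member windows and 1.848% of all, the E-box CACGTG in 9.42% and 7.256%, the TGATGNAA element bound by ATF4 with C/EBP proteins in 1.449% and 3.617%, and CCAAT in 32.61% and 34.61%, each on both strands. A match says only that the letters are present in the window.

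Markers of the T lineage were present, with 14 of 14 at a mean of at least 1 FPKM and a summed level of 4280 to 5341 FPKM in DMSO libraries, 3998 to 4252 in libraries titled MI-389 and 4593 to 4844 in libraries titled sunitinib. Of 5 B cell markers 2 reached that level, and none of 5 myeloid or 5 epithelial and fibroblast markers did. The summed level of the 184 members was 2859 to 3335 FPKM per library. Undetected rows stand near 0.1 FPKM in this table (lowest values of 0.0924 to 0.104 per library) rather than at 0.

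Most members were scarce. Their median level was 4.10 FPKM, against 25.2 FPKM over the 12301 genes tested, with 108 below 5 FPKM, 43 at 10 or more and 4 at 100 or more. The most abundant was C17orf76-AS1 (now SNHG29, a host gene of small nucleolar RNAs), at 861, 1041 and 1070.0 FPKM in DMSO libraries. LINC00493 (SMIM26) stood at 202, 217 and 234 FPKM. LINC00657 (now NORAD, a cytoplasmic RNA that binds Pumilio proteins) stood at 161, 177 and 185 FPKM. HHIP-AS1, antisense to the gene of the hedgehog-interacting protein, followed at 122, 132 and 129.8 FPKM. In 16 members a group mean fell below 1 FPKM, so that they were kept through their level in other groups, and a call in such a row is tied to the filter. Of these, 3 were called between libraries titled MI-389 and DMSO (PRKAG2-AS1, LPP-AS2 and LINC00669) and 2 between libraries titled sunitinib and DMSO (PRKAG2-AS1 and LINC00173).

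Against DMSO, libraries titled MI-389 had 33 members higher and 31 lower. All comparisons used limma on log2(FPKM + 1), and a call is a Benjamini-Hochberg adjusted p under 0.05 over all 12301 genes. The called members made up 34.8% of the 184, below the 56.7% called among all genes; 17.9% were higher, where 28.5% of all genes were, and 16.8% were lower, where 28.3% of all genes were. The gap to the background was wider among scarce rows: at 5 FPKM or more 56.6% of 76 members and 61.8% of all genes were called, and at 1 to 5 FPKM 19.4% of 108 members and 33.5% of all genes. The median half-width of the 95% interval of a log2 difference was 0.297 for members and 0.173 for all genes. LINC rows had 15 of 47 higher and 8 lower, and antisense rows 18 of 137 higher and 23 lower; the difference between these classes was not tested. The median log2 difference was −0.0053 for members and −0.0021 for all genes. All 3 libraries of a group lay outside the range of the other in 38.6% of members and 60.2% of all genes. In bulk RNA, a change in the number of cells of a kind and a change in RNA per cell cannot be told apart. The split between higher and lower depended on scaling, with 27 higher and 41 lower when each library was centred on its median, 31 and 45 with quantile normalization, and 34 and 41 with cyclic loess. Among all genes, 3502 higher and 3477 lower became 3222 and 4956, 3721 and 4396, and 4101 and 3988 under the same settings. With rescaling to spike-in RNAs the counts of all genes were 3546 higher and 3348 lower.

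**Figure D1:**
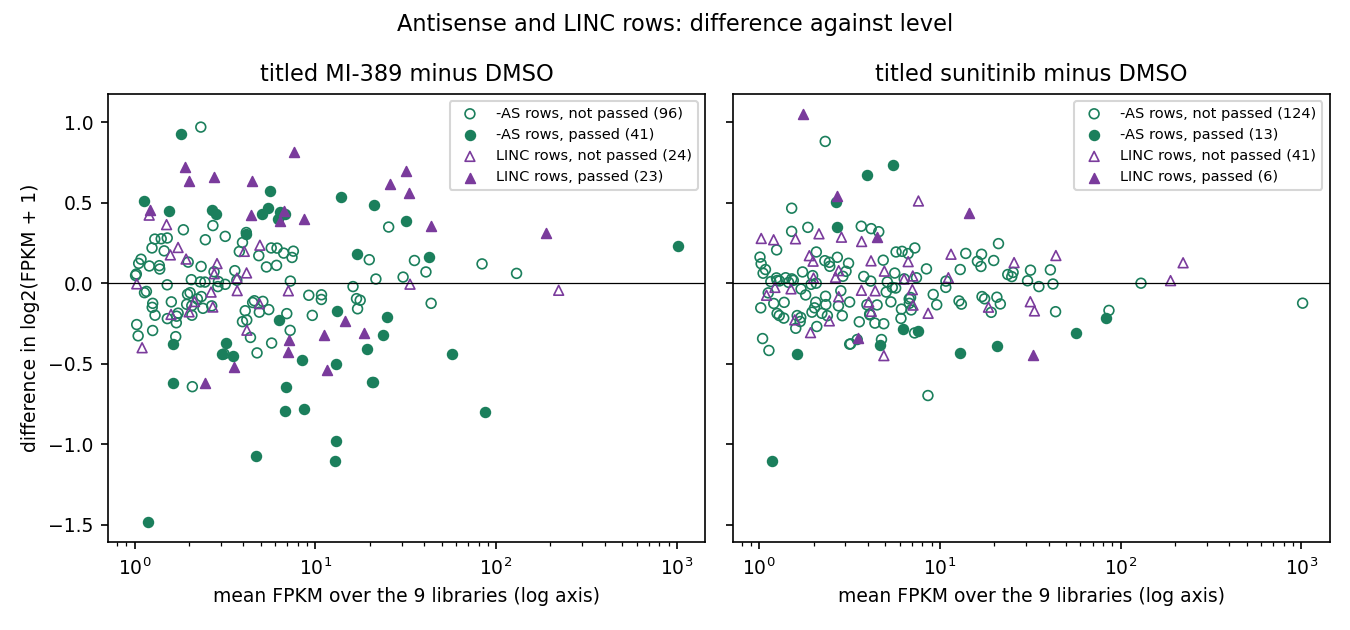
Log2 difference from DMSO of each of the 184 members (y axis, log2(FPKM + 1) scale) against its mean level over the 9 libraries (x axis, FPKM, log axis), for both treated groups; circles are antisense rows and triangles LINC rows, and filled symbols passed the adjusted p of 0.05. In libraries titled MI-389, 33 filled points lie above 0 and 31 below, and in libraries titled sunitinib 8 and 11.

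PRKAG2-AS1, antisense to the gene of a regulatory gamma subunit of the energy sensor AMPK, had the most negative log2 difference. The row passed the filter only through its DMSO level, so this rank is a description. It was at 2.31, 2.47 and 2.99 FPKM in DMSO libraries and at 0.209, 0.426 and 0.216 in libraries titled MI-389, where undetected rows stand near 0.1 FPKM. The groups did not overlap, and the log2 difference was −1.48 ± 0.14 (SE; adjusted p = 2.1e-05). MFI2-AS1 (now MELTF-AS1), antisense to the gene of melanotransferrin, an iron-binding surface protein, went from 14.9, 16.9 and 17.1 to 6.59, 7.59 and 6.96 FPKM, a mean 2.31-fold lower (log2 difference −1.10 ± 0.08 SE, adjusted p = 4.48e-06). All 3 treated libraries lay below all 3 DMSO libraries. FOXD2-AS1, named after the forkhead transcription factor gene FOXD2, went from 5.66, 7.31 and 6.88 to 2.85, 2.49 and 2.5 FPKM (log2 difference −1.07 ± 0.10 SE, adjusted p = 1.89e-05), again with no overlap. TMPO-AS1, antisense to the gene of the lamina-associated thymopoietin proteins, went from 16.6, 16.7 and 19.8 to 9.15, 7.65 and 8.61 FPKM (log2 difference −0.98 ± 0.08 SE, adjusted p = 1.08e-05).

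Abundant members fell as well. FGD5-AS1, whose exons overlap those of FGD5 and of the nuclear receptor gene NR2C2, was at 100.4, 106 and 110.0 FPKM in DMSO libraries and 62.4, 57.9 and 59.6 in libraries titled MI-389, 1.76-fold lower on average (log2 difference −0.80 ± 0.06 SE, adjusted p = 4e-06). OIP5-AS1, the conserved RNA also called cyrano, went from 64.6, 64.1 and 73.4 to 50.1, 48.0 and 50.0 FPKM (log2 difference −0.44 ± 0.06 SE, adjusted p = 0.000282). Both had treated and vehicle libraries that did not overlap. HNRNPU-AS1 went from 27.4, 24.9 and 26.0 to 18.1, 15.9 and 16.1 FPKM (log2 difference −0.61 ± 0.07 SE, adjusted p = 7.24e-05), while the separate HNRNPU row was not called (log2 difference −0.07, adjusted p = 0.432). TMEM161B-AS1, USP30-AS1 (antisense to the gene of a mitochondrial deubiquitinase) and NAPA-AS1 (antisense to the gene of the membrane-fusion factor alpha-SNAP) completed the 8 largest falls, with log2 differences of −0.79, −0.64 and −0.78. The NAPA-AS1 call was lost with no filter on low values (adjusted p = 0.0532), and 51.9% of its 31-base words also occur in other genes.

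Of the 33 members called higher, 12 had a mean of 1 to 5 FPKM and 21 a mean of at least 5. ZNF790-AS1, antisense to a zinc-finger gene, had the largest rise, from 1.57, 1.03 and 0.955 to 3.01, 3.75 and 2.71 FPKM (log2 difference 0.93 ± 0.17 SE, adjusted p = 0.00121). LINC00263 (now OLMALINC) went from 3.63, 6.54 and 5.54 to 10.6, 8.52 and 10.3 FPKM (log2 difference 0.82 ± 0.18 SE, adjusted p = 0.00334). LINC00152 (now CYTOR, a cytoplasmic RNA linked to the cytoskeleton) went from 16.9, 26.1 and 20.8 to 34.9, 26.8 and 37.1 FPKM (log2 difference 0.62 ± 0.17 SE, adjusted p = 0.00972). In all of these the groups did not overlap, although for LINC00152 the highest DMSO and the lowest treated library were close. Of the 31-base words of LINC00152, 29.7% also occur elsewhere, mainly in MIR4435-2HG, so reads may be divided between the pair. LINC00623 went from 21.9, 26.9 and 31.4 to 42.9, 41.8 and 46.1 FPKM (log2 difference 0.70 ± 0.15 SE, adjusted p = 0.0031), and 71.4% of its words are shared, so this value is uncertain as to locus. LINC00340 (now CASC15) went from 27.4, 30.8 and 33.9 to 47.7, 41.7 and 47.8 FPKM (log2 difference 0.56 ± 0.08 SE, adjusted p = 0.000297), with all treated libraries above all vehicle libraries. LINC00176 (C20orf204), LINC00476 and LINC00630 rose by 0.72, 0.64 and 0.64 on the log2 scale. LINC00659 was called (log2 difference 0.66 ± 0.24 SE, adjusted p = 0.0388), but its groups overlapped, at 2.24, 1.36 and 3.04 against 2.92, 3.73 and 5.53 FPKM, and the call was lost without DMSO replicate 1 or 2, MI-389 replicate 2 or 3, or sunitinib replicate 3 (adjusted p up to 0.143 over all alternatives). That call was also lost with no filter on low values, median centring, quantile normalization, robust variance or only the 6 libraries compared.

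Among the most abundant members, LINC00657 (NORAD) rose modestly, to 217, 211 and 223 FPKM (log2 difference 0.32 ± 0.06 SE, adjusted p = 0.00148); 56.4% of its words occur in other genes. LINC00339 reached 50.2, 48.2 and 50.2 FPKM from 36.2, 39.4 and 40.1 (log2 difference 0.35 ± 0.06 SE, adjusted p = 0.000435). C17orf76-AS1 reached 1147, 1137 and 1187 FPKM (log2 difference 0.23 ± 0.08 SE, adjusted p = 0.0317), a call lost without any of the 3 libraries titled MI-389 or without sunitinib replicate 2 or 3 (adjusted p up to 0.0981 over all alternatives). That call was also lost with no filter on low values and with only the 6 libraries compared. HHIP-AS1 (log2 difference 0.06, adjusted p = 0.308), LINC00493 (log2 difference −0.04, adjusted p = 0.592) and THAP9-AS1 (log2 difference 0.12, adjusted p = 0.116) were not called. LINC00467 was not called either (log2 difference 0.07, adjusted p = 0.65), while MCM3AP-AS1 fell from 3.12, 3.17 and 3.67 to 2.66, 1.92 and 2.01 FPKM (log2 difference −0.44 ± 0.12 SE, adjusted p = 0.011).

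**Figure D2:**
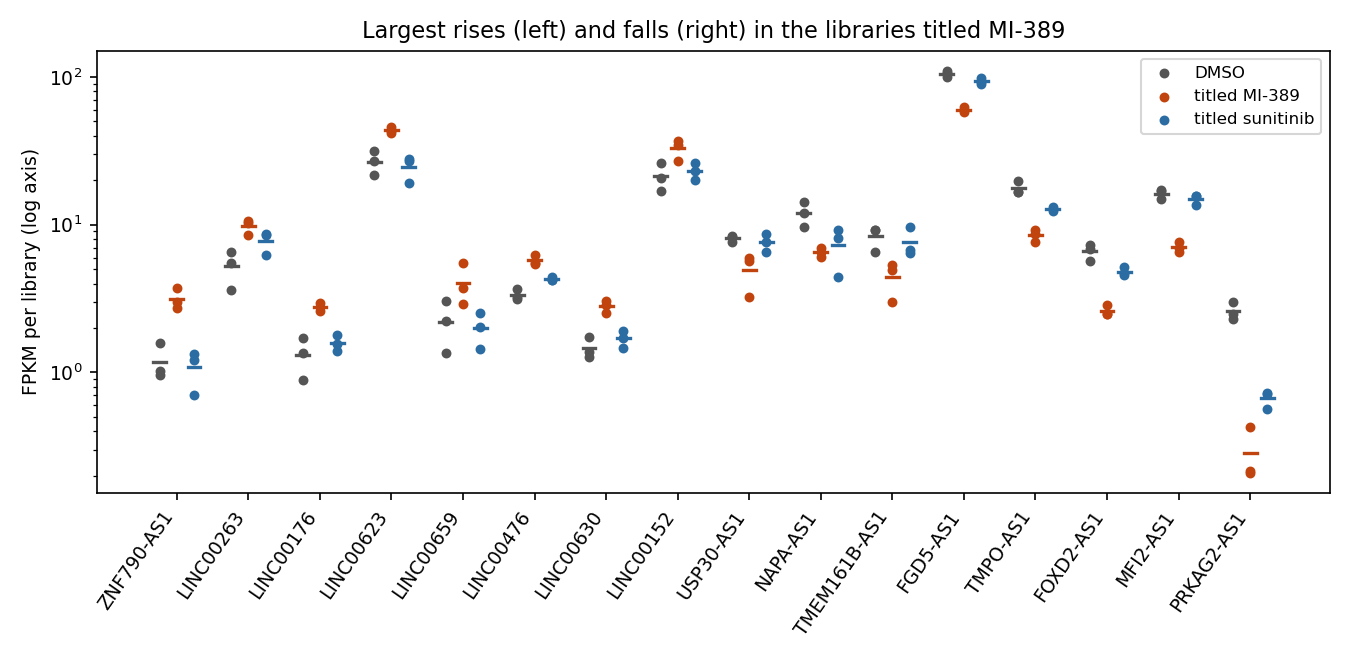
FPKM of the members with the largest called changes in libraries titled MI-389 against DMSO (y axis, FPKM, log axis), with 1 point per library and a short line at each group mean, for all 3 groups. PRKAG2-AS1 sits between 0.209 and 0.426 FPKM in libraries titled MI-389 and above 2 FPKM in DMSO libraries.

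Of the 33 higher and 31 lower calls, 24 and 23 held under each of 12 alternative settings in which they were tested and without each library in turn. They include LPP-AS2 among the higher and PRKAG2-AS1 among the lower calls, both tied to the filter as described above. Rows with a mean below 5 FPKM were tested in 11 of the 12 settings. Raising the demand to a fold of at least 1.5 on the log scale left 8 higher and 12 lower, beside 9.15% and 6.63% of all genes.

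The antisense rows could be set beside the gene each is named after. The table held the named gene for 136 of the 137, and the named gene was the more abundant in 100, with a median ratio of 4.01 (quartiles 0.912 to 17.1). Of the 136 named genes, 120 reached 1 FPKM and were tested. In 100 pairs, exons overlapped, so each member of such a pair may hold reads of the other. Among the 120 pairs in libraries titled MI-389 against DMSO, both rows were called in 24: both rose in 4, both fell in 9 and they moved in opposite directions in 11. The antisense row alone was called in 14, the named gene alone in 41 and neither in 41. Named genes were thus called in 54.2% of pairs, near the 56.7% of all genes, and antisense rows in 31.7%. Across the 120 pairs, which are genes and not replicates and share libraries, the log2 differences had a Pearson r of 0.121 and a Spearman rho of 0.107.

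Opposite movement was seen at TMEM161B, whose antisense row fell from 9.18, 6.54 and 9.26 to 4.95, 3.02 and 5.31 FPKM while the named gene, which encodes a membrane protein, rose by 0.72 on the log2 scale, which is the scale of all differences between a row and its named gene given next. At MAP3K14, the gene of the kinase NIK of the noncanonical NF-kB pathway, the antisense row changed by −0.50 and the gene by 0.73. H1FX, the gene of a linker histone, rose by 0.66 and its antisense row changed by −0.62. USP30 rose by 0.43 as its antisense row changed by −0.64. At ITGB2, the gene of the leukocyte integrin beta subunit, the antisense row rose by 0.39 and the gene changed by −0.26. Each of these rows and genes was called. Movement in the same direction was seen at ZNF790, where both rose (0.93 and 0.87), at LEF1, the gene of a T-cell transcription factor (0.57 and 0.35), and at TMPO, where the antisense row changed by −0.98 and the gene by −0.20. These pairs beyond the largest changes were chosen after their values were seen. In every pair named in this paragraph exons overlap, so reads of the named gene may be counted in the antisense row and the reverse. The named gene stood at 184.6 times the level of its antisense row for H1FX, 87.7 for LEF1, 23.9 for TMPO and 7.94 for ZNF790. For ITGB2, TMEM161B, USP30 and MAP3K14 the ratio was 5.04, 3.36, 1.30 and 0.706.

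**Figure D3:**
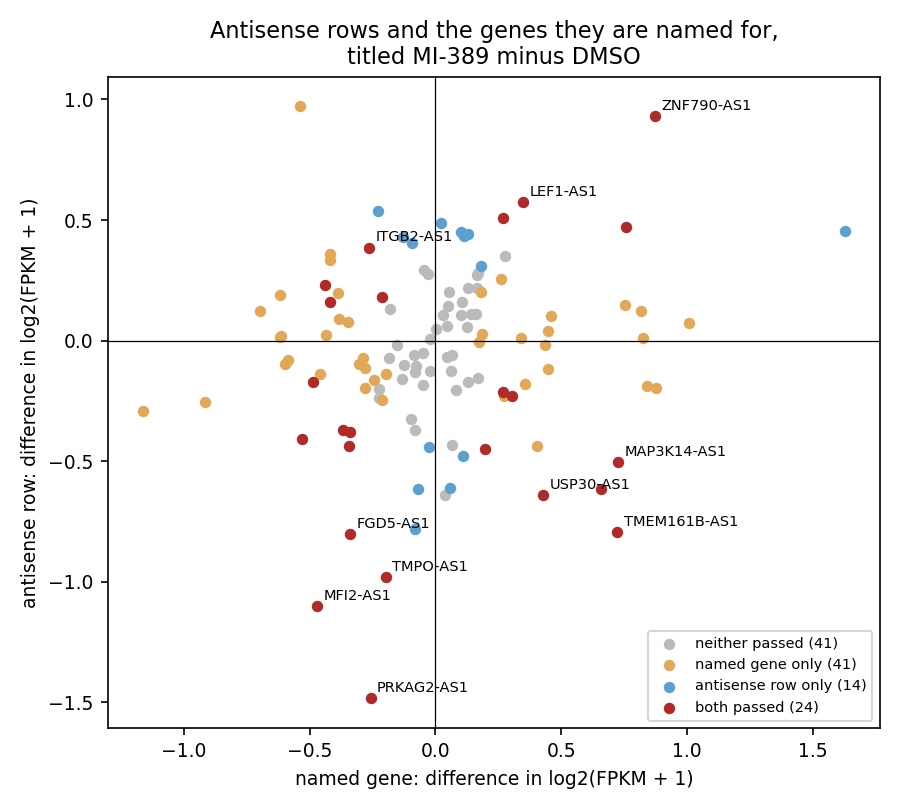
Log2 difference of each antisense row (y axis) against that of the gene it is named after (x axis), libraries titled MI-389 against DMSO, log2(FPKM + 1) scale, for 120 pairs; colours mark pairs in which both rows, the antisense row alone, the named gene alone or neither passed the adjusted p of 0.05. Points lie in all 4 quadrants: 4 pairs rose together, 9 fell together and 11 moved in opposite directions.

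Libraries titled sunitinib differed less from DMSO, with 8 members higher and 11 lower. The share called was 10.3%, against 19.3% of all genes; 4.35% of members were higher, where 2.37% of all genes were, and 5.98% were lower, where 16.9% of all genes were. The groups did not overlap in 25% of members and 35.2% of all genes, and 3 members were higher and 1 lower by a fold of at least 1.5, beside 0.236% and 0.862% of all genes. The split turned with scaling, to 22 higher and 8 lower when each library was centred on its median, 22 and 10 with quantile normalization, and 23 and 10 with cyclic loess. Among all genes, 291 higher and 2079 lower became 1270 and 1866, 1696 and 1981, and 1852 and 1962 under the same settings. With rescaling to spike-in RNAs the counts of all genes were 297 higher and 1447 lower, so most were still lower. Both comparisons use the same 3 DMSO libraries, so their values are given side by side.

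PRKAG2-AS1, which was kept only through its DMSO level, was at 0.568, 0.726 and 0.717 FPKM in libraries titled sunitinib (log2 difference −1.10 ± 0.14 SE, adjusted p = 0.00236), beside −1.48 in libraries titled MI-389. TMPO-AS1 stood at 12.8, 13.2 and 12.5 FPKM (log2 difference −0.43 ± 0.08 SE, adjusted p = 0.0089) and HNRNPU-AS1 at 18.3, 19.6 and 21.1 (log2 difference −0.39 ± 0.07 SE, adjusted p = 0.00772). LINC00340 stood at 22.6, 22.5 and 21.6 FPKM, below every DMSO library (log2 difference −0.44 ± 0.08 SE, adjusted p = 0.00788), whereas in libraries titled MI-389 it was above every one of them. These 4 falls (PRKAG2-AS1, TMPO-AS1, HNRNPU-AS1 and LINC00340), and the rises of LINC00426 and PSMG3-AS1, were the calls that held without each library and under every setting tested. There were 12 such settings, or 11 for PRKAG2-AS1 and PSMG3-AS1, whose means were below 5 FPKM. The PRKAG2-AS1 call is also tied to the filter. LINC00426 went from 14.4, 11.8 and 14.6 FPKM in DMSO libraries to 18.2, 18.2 and 19.7 (log2 difference 0.44 ± 0.09 SE, adjusted p = 0.01), while libraries titled MI-389 were at 12.2, 10.5 and 11.5 FPKM and overlapped DMSO (log2 difference −0.23 ± 0.09 SE, adjusted p = 0.0426, a call lost without DMSO replicate 1 or 3, MI-389 replicate 2 or 3, or any library titled sunitinib). The MI-389 call of LINC00426 was also lost with no filter on low values, spike-in rescaling or only the 6 libraries compared. PSMG3-AS1, antisense to the gene of a proteasome assembly chaperone, went from 2.26, 2.32 and 2.33 to 3.83, 3.44 and 3.79 FPKM (log2 difference 0.50 ± 0.10 SE, adjusted p = 0.0107). In both rows, all libraries titled sunitinib lay above all vehicle libraries.

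Larger rises were in scarce rows, and their calls were lost without certain libraries. LINC00173 was at 1.40, 0.359 and 1.13 FPKM in DMSO libraries and 2.94, 3.36 and 2.62 in libraries titled sunitinib (log2 difference 1.05 ± 0.24 SE, adjusted p = 0.0172). Its DMSO mean of 0.963 FPKM lies below the filter, and the call was lost without sunitinib replicate 2 (adjusted p = 0.0665) and with no filter on low values. DICER1-AS1, antisense to the gene of the ribonuclease that makes microRNAs, went from 5.18, 3.82 and 4.44 to 7.63, 8.54 and 8.05 FPKM (log2 difference 0.73 ± 0.18 SE, adjusted p = 0.0228), while DICER1 was called lower (log2 difference −0.31); their starts are the ones shown above. Of the 120 pairs this was the 1 called in opposite directions; both rows fell in 5 and both rose in 0, the antisense row alone was called in 6, the named gene alone in 23 and neither in 85. Named genes were called in 24.2% of pairs, beside 19.3% of all genes, of which most were lower (16.9% against 2.37% higher). The call of DICER1-AS1 was lost without DMSO replicate 2 or 3 or without any of the 3 libraries titled sunitinib, and with no filter on low values (adjusted p up to 0.0892 over all alternatives). NPPA-AS1, antisense to the gene of atrial natriuretic peptide, went from 2.58, 4.57 and 2.95 to 5.62, 6.31 and 5.60 FPKM (log2 difference 0.67 ± 0.15 SE, adjusted p = 0.0164), a call lost without DMSO replicate 3 or sunitinib replicate 2 or 3, and with no filter on low values. OIP5-AS1 stood at 56.5, 54.0 and 51.6 FPKM (log2 difference −0.31 ± 0.06 SE, adjusted p = 0.0109), lost without sunitinib replicate 3 (adjusted p = 0.0516). LINC00051, LINC00476 and SDCBP2-AS1 were also called higher, with log2 differences of 0.54, 0.29 and 0.35. COX10-AS1, DDX11-AS1, FOXD2-AS1, LINC00115, NOP14-AS1 and THAP9-AS1 were called lower, at −0.29, −0.44, −0.38, −0.34, −0.29 and −0.21. COX10-AS1 and NOP14-AS1 were added after their values were seen, to complete the 11. Each of these 9 lost its call with no filter on low values, without sunitinib replicate 2, without sunitinib replicate 3 and without at least 1 of the DMSO libraries. All but COX10-AS1 also lost it without sunitinib replicate 1, and all but FOXD2-AS1 and LINC00051 without at least 1 library titled MI-389 (adjusted p up to 0.16 over all alternatives). All but LINC00051 lost it under further settings too. Of 12 settings, calls held in 4 for COX10-AS1, 5 for THAP9-AS1 and 6 for NOP14-AS1. Of 11 settings, they held in 5 for LINC00115, 7 for DDX11-AS1, 8 for LINC00476 and SDCBP2-AS1, 9 for FOXD2-AS1 and 10 for LINC00051. Of the abundant members, FGD5-AS1 (log2 difference −0.17, adjusted p = 0.0657), LINC00657 (log2 difference 0.02, adjusted p = 0.867) and HHIP-AS1 (log2 difference 0.00, adjusted p = 0.998) were not called.

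**Figure D4:**
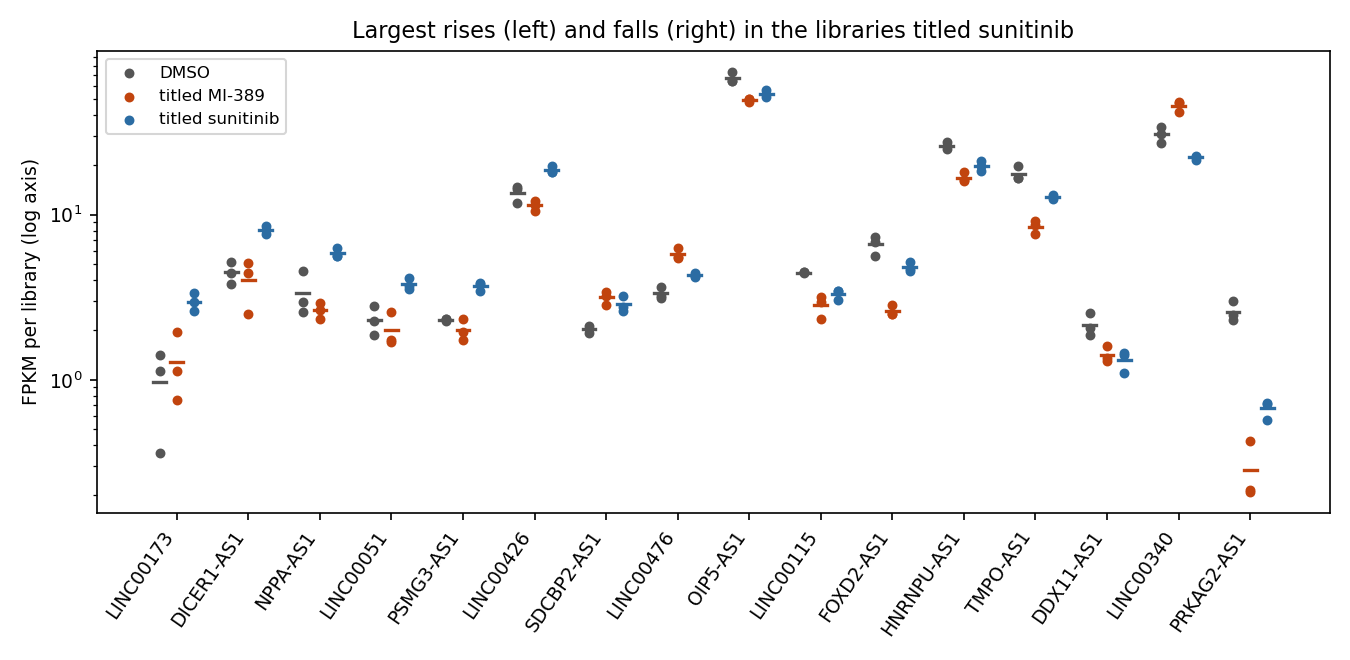
FPKM of members called in libraries titled sunitinib against DMSO (y axis, FPKM, log axis), with 1 point per library and a short line at each group mean, for the 8 largest rises and 8 largest falls. LINC00340 lies lowest in libraries titled sunitinib and highest in libraries titled MI-389.

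Between the treated groups, 37 members were higher and 30 lower in libraries titled MI-389, 36.4% of the 184 against 56.3% of all genes (20.1% higher, where 36% of all genes were, and 16.3% lower, where 20.3% of all genes were). The groups did not overlap in 43.5% of members and 69.4% of all genes, and 5 members were higher and 12 lower by a fold of at least 1.5, beside 12.1% and 3.58% of all genes. The doses in the crossed source field differ, so these are differences of compound and dose together, with no matched dose. The split moved to 20 higher and 57 lower when each library was centred on its median, 21 and 55 with quantile normalization, and 23 and 47 with cyclic loess. Among all genes, 4427 higher and 2500 lower became 3279 and 4863, 3791 and 4426, and 4075 and 4040 under the same settings. With rescaling to spike-in RNAs the counts of all genes were 4254 higher and 2574 lower. LINC00340 differed most on the higher side (log2 difference 1.01 ± 0.08 SE, adjusted p = 8.64e-06). ZNF790-AS1, LINC00623 and LINC00659 followed, with log2 differences of 1.00, 0.81 and 0.74. The LINC00659 call was lost without MI-389 replicate 3 or sunitinib replicate 1 or 3, and with no filter on low values or median centring. LINC00338, LPP-AS2 and LINC00176 were higher by 0.58, 0.57 and 0.55. LPP-AS2 is among the members with a group mean below 1 FPKM, so its call is tied to the filter. ASH1L-AS1, antisense to a histone methyltransferase gene, was at 4.41, 3.62 and 4.32 against 1.82, 2.34 and 2.5 FPKM (log2 difference 0.67 ± 0.12 SE, adjusted p = 0.000962), with DMSO libraries in between and called against neither. On the lower side MFI2-AS1 differed most (log2 difference −0.99 ± 0.08 SE, adjusted p = 8.19e-06), with libraries titled sunitinib at 15.6, 15.7 and 13.7 FPKM. NPPA-AS1, DICER1-AS1, LINC00173, LINC00847, LINC00051, FOXD2-AS1 and LINC00426 followed, with log2 differences of −0.91, −0.90, −0.83, −0.72, −0.69, −0.69 and −0.67. The LINC00173 call was lost without MI-389 replicate 2 or sunitinib replicate 2, and with no filter on low values. PRKAG2-AS1 was lower in libraries titled MI-389 (log2 difference −0.38 ± 0.14 SE, adjusted p = 0.0404), lost without MI-389 replicate 1 or 3 or sunitinib replicate 2 or 3, and with a pseudocount of 5.

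Over the 9 libraries the members whose log2 level tracked PRKAG2-AS1 most closely were OIP5-AS1 (Pearson r = 0.947), HNRNPU-AS1 (0.938) and TMPO-AS1 (0.914). The 9 points are 3 groups of 3, and the members were ranked by this value, so it is a description.

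Well-known long noncoding RNAs named in other ways showed both directions. Of 38 listed, 28 were in the table under the listed symbol and 19 of these were tested. NORAD, CYTOR, CASC15 and PCAT6 were listed too but are not among the 28. They stand in the table as the members LINC00657, LINC00152, LINC00340 and KDM5B-AS1. Of the 19, 4 were higher and 8 lower against DMSO in libraries titled MI-389, and 0 higher and 4 lower in libraries titled sunitinib. The shares called, 63.2% and 21.1%, lie near the 56.7% and 19.3% of all genes. MALAT1 and NEAT1, the nuclear RNAs of speckles and paraspeckles, rose from 19.6 ± 1.34 to 33.0 ± 3.30 FPKM and from 40.7 ± 3.19 to 66.9 ± 3.87 FPKM (SD, n = 3 each) in libraries titled MI-389. In the same libraries DANCR, a host gene of small nucleolar RNAs, fell from 392 ± 40.9 to 159 ± 12.9 FPKM, MIR17HG, the host of a microRNA cluster, from 24.5 ± 2.87 to 9.46 ± 0.927, and MIR210HG, host of a hypoxia-linked microRNA, from 7.34 ± 1.16 to 1.39 ± 0.782. Each of these 5 was called.

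Words shared with other genes limited what a row can be said to measure. The median share of a member's 31-base words found in other GENCODE genes was 12.2% (quartiles 5.75 to 28.0%), and it was at least 25% in 49 members. Words were matched on either strand and in any other gene, so a gene that overlaps at the same locus counts too. In libraries titled MI-389, 26.5% of those 49 were called, and 38.0% of the 129 with a smaller share, beside 56.7% of all genes. These sets were not matched for level, with which the share of members called also varied (19.4% at 1 to 5 FPKM, 56.6% at 5 or more). The difference between the sets was not tested.

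**Figure D5:**
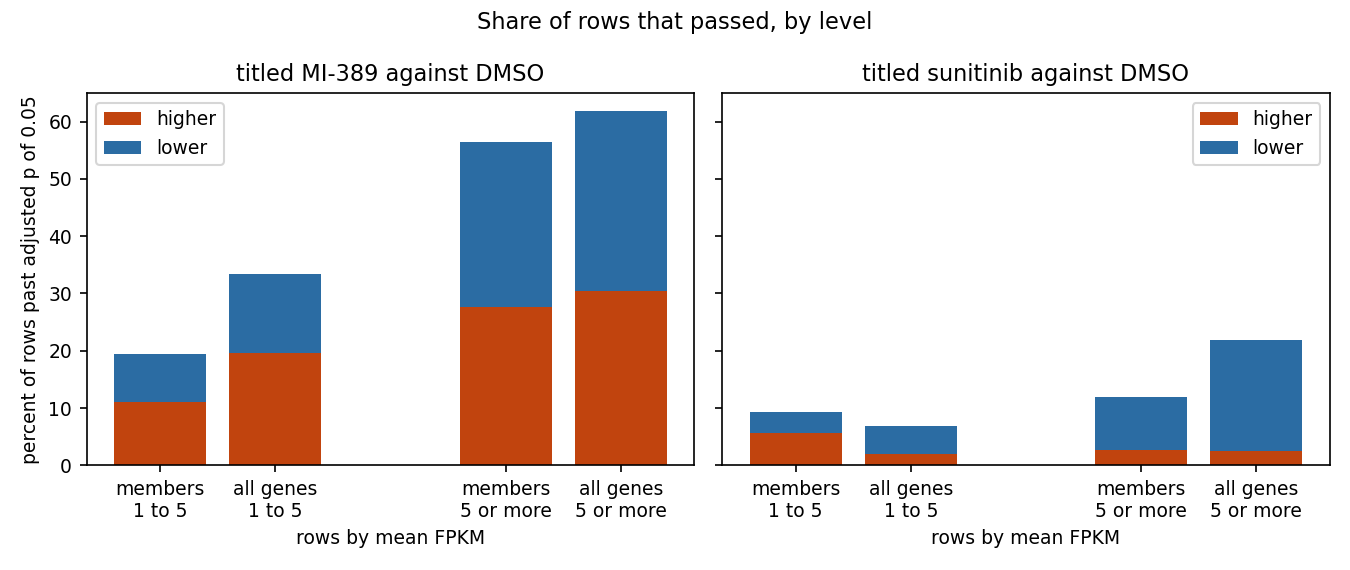
Percent of rows called against DMSO (y axis, from 0) among members and among all genes tested, by mean FPKM (x axis), for both treated groups; red is higher and blue lower. At 5 FPKM or more the members in libraries titled MI-389 stand at 56.6% and all genes at 61.8%; at 1 to 5 FPKM they stand at 19.4% and 33.5%.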

How the data were processed

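Polyadenylated RNA of MOLT4 cells was made into libraries with a SMARTer v4 kit, which does not mark strand, with ERCC spike-in RNA added by cell number, per the labels' protocols. The submitters' processing notes name HISAT, Cufflinks 2.0.0 and hg19; annotation and between-library normalization are not given in the sources. Values deposited by the authors are FPKM, in a column for each library and 23713 rows by symbol, of which 92 are spike-in RNAs. Read counts are not in these values, so no counting interval is given.

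The 12301 gene rows with a mean of at least 1 FPKM entered a limma model (version 3.58.1, R 4.3.3) of log2(FPKM + 1), over all 9 libraries and 3 groups with a variance trend, two-sided, with Benjamini-Hochberg adjustment over all of them. The code was tested on simulated data. Log2 differences understate changes of low rows; fold values are ratios of mean FPKM. Members with values in the text were the 8 largest called rises and falls of each comparison, the 8 most abundant and a short list of known RNAs; others are said to be chosen later. The members and lists were chosen with earlier results of these data known. Shared 31-base words and exon overlaps come from GENCODE release 29, and promoters from RefSeq, both on GRCh38 and not the build of the values.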

Additional observations from a re-analysis of the deposited data

How the results depend on the processing

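Besides leaving out each library, the settings changed were the pseudocount (0.1 and 5), the filter (none, or a mean of at least 5 FPKM), the scaling (median centring, quantile, cyclic loess, spike-in RNAs), the model (replicate block, untrended or robust variance, only the 6 libraries compared) and the fold (at least 1.5). For libraries titled MI-389 against DMSO, counts of members moved past 1.5 times only with the fold of at least 1.5 (8 higher, 12 lower), and leaving out a library gave 25 to 38 higher and 25 to 32 lower. For libraries titled sunitinib against DMSO, higher and lower counts were 2 and 5 with no filter, 3 and 7 at a mean of at least 5 FPKM, and 3 and 1 with the fold; higher was 22, 22 and 23 under median centring, quantile normalization and cyclic loess; lower was 6 with spike-in rescaling and 7 with the 6 libraries alone. Leaving out a library gave 2 to 9 higher and 5 to 11 lower, and moved a count past 1.5 times without DMSO replicate 2 or 3, MI-389 replicate 3 or any library titled sunitinib. Between the treated groups, higher and lower were 22 and 18 at a mean of at least 5 FPKM, 20 and 57 under median centring, 21 and 55 under quantile normalization, 23 and 47 under cyclic loess, 5 and 12 with the fold, and 26 to 38 and 22 to 33 with a library left out. At a mean of at least 5 FPKM and with the fold, fewer rows could pass. Elsewhere the cause was not tested. Counts of all genes also moved under median centring, quantile normalization and cyclic loess, as given with each comparison above. With the replicate number as a block, higher and lower were 34 and 30, 6 and 9, and 38 and 31 in the 3 comparisons; deviations of same-numbered libraries correlated at −0.042 to 0.112 and of others at −0.216 to 0.134, 5 of 9 libraries correlated best with their own number, and the numbers were not taken as pairs.

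Signs turned only for log2 differences that were not called as reported. Under median centring these were HHIP-AS1 (−0.017 for MI-389 against DMSO, −0.104 between treated groups) and LINC00467 (−0.0138 for MI-389). Under quantile normalization they were LINC00467 (−0.0322) and LINC00493 (0.151) for MI-389 and C17orf76-AS1 (0.0176) for sunitinib, and under cyclic loess LINC00493 (0.192) for MI-389. With a library left out, LINC00493 ranged from −0.0930 to 0.0096 and LINC00467 from −0.0444 to 0.1459 for MI-389, turning without DMSO replicate 3. For sunitinib the ranges were −0.0172 to 0.2812 for LINC00152 and −0.0404 to 0.0621 for LINC00657, both turning without DMSO replicate 1 and the latter also without sunitinib replicate 1, and −0.0345 to 0.0251 for HHIP-AS1, turning without DMSO replicate 1 or sunitinib replicate 2 or 3. Between treated groups LINC00467 ranged from −0.1425 to 0.0043, turning without sunitinib replicate 1. Of 995 values of named members under alternative settings, 886 kept direction and side of the threshold, and of 711 with a library left out, 614 did.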
